A study of Mus musculus with 68 samples.

Results

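The step from 14 hpa (hours post activation, late in the first cell cycle) to the early 2-cell stage (E2C) was examined in cumulus cell-derived SCNT (somatic cell nuclear transfer) embryos of the mouse. The members were the 6 libraries labelled NT-14h and the 6 labelled NT-e2cell, 12 of the 68 libraries of the series. In both groups a cumulus cell nucleus had been placed in an enucleated metaphase II oocyte of BDF1 mice, and all reconstructed embryos had been activated for 6 h in 1 mM SrCl2 with 5 μg/mL cytochalasin B and left otherwise untreated. The zona pellucida and the polar bodies were removed, 10 blastomeres entered each reaction, and polyadenylated RNA was amplified by Smart-seq2. The embryos of both stages thus shared the donor cell type, the oocyte strain and the activation, and differed in stage.

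The labels number the libraries of each stage 1 to 6, and the protocol speaks of 3 replicates per stage. What separates replicates 1 to 3 from replicates 4 to 6 is not given, so they are called the first and the second set of replicates. A gene was counted as changed in both sets when it passed an adjusted p of 0.05 and a 2-fold change over all 12 libraries and differed at least 2-fold, in the same direction, between the mean log2 levels of each set. The study describes its SCNT samples as biologically independent. The labels do not tie libraries to days or animals, and the p-values measure the spread between libraries, which may be technical. That spread was pooled over 53 SCNT libraries of 9 stages, so it is not that of these 12 libraries alone.

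At these stages the embryo lives largely on RNA stored by the oocyte. Maternal transcripts are masked, deadenylated and degraded in waves that begin at meiotic maturation, while a first, minor activation of the genome starts late in the first cell cycle and the major activation follows in the late 2-cell embryo. In an SCNT embryo the nucleus comes from a differentiated cell, but the cytoplasm, and with it the stored RNA, is that of the oocyte. Because RNA was captured by its poly(A) tail, a shorter tail and fewer molecules cannot be told apart, and levels are relative to the other RNA of the library. In pooled blastomeres, fewer cells with a transcript and less of it per cell cannot be told apart either.

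Levels are in TPM (transcripts per 1000000), summed over the rows of a gene. Changes are E2C minus 14 hpa on the scale of log2(TPM + 1), with the standard error (SE) and Benjamini-Hochberg adjusted p of limma, fitted over 53 SCNT libraries of 9 stages and 11867 genes. Over all 12 libraries 330 genes were higher at E2C (2.78% of genes tested) and 362 were lower (3.05%). Of these, 54 were higher in both sets (0.455%) and 229 were lower in both sets (1.93%). Thus 63.3% of the falls but 16.4% of the rises passed in both sets, and 275 of the 330 rises reached 2-fold among replicates 1 to 3 only. Counts of list members that rose or fell in both sets are read beside the shares of 0.455% and 1.93%. Leaving out 1 library gave 175 to 410 rises (175 without E2C replicate 2) and 39 to 89 rises in both sets (89 without 14 hpa replicate 6). The genes closest to the limit were Oaz3, which changed by 1.00 in the set with the smaller change and which was counted, and Gm9895, at 0.997, which was not.

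The genes that moved alike in both sets fell into 2 groups of different level. Those that fell were abundant, with a median over the 229 genes of 62.8 TPM at 14 hpa and 18.4 TPM at E2C. Those that rose were scarce, with a median over the 54 genes of 1.78 TPM at 14 hpa and 16.1 TPM at E2C. Over all genes tested the medians were 5.34 and 5.76 TPM. The rule used these same levels, and on the log2(TPM + 1) scale a gene under 1 TPM cannot fall by 1. The contrast in level at 14 hpa is thus set in part by the rule. The largest single families were a cluster of oocyte F-box genes on chromosome 9 among the falls and a cluster of Eif1a-like genes on chromosome 12 among the rises.

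**Figure D1:**
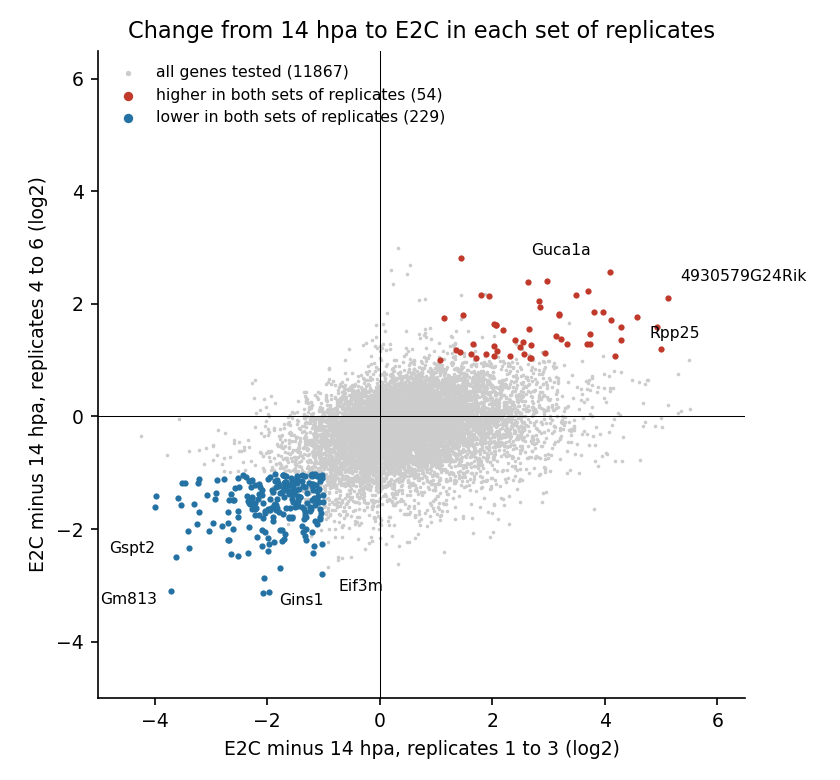
Change from 14 hpa to E2C on the log2(TPM + 1) scale among replicates 1 to 3 (x axis) and replicates 4 to 6 (y axis), 1 point per gene. The 229 genes that were lower in both sets (blue) and the 54 that were higher in both (red) lie in opposite corners of a cloud of 11867 genes whose median is 0.38 on the x axis and -0.15 on the y axis.

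Promoters of the 2 clusters are shown because those compared within each cluster were alike. For the chromosome 12 cluster only 2 promoters, of Gm4027 and BB287469, were compared, so likeness across that cluster was not examined. Each run below holds the 120 bases before the RefSeq start on the gene's strand, in build GRCm38.p6, whose coordinates are those of mm10. For the F-box genes, capitals mark the longest run that the RefSeq promoters of the 8 genes Fbxw14, 15, 16, 18, 20, 21, 24 and 28 have in common.
Fbxw14, chr9:109287677-109287796, minus strand: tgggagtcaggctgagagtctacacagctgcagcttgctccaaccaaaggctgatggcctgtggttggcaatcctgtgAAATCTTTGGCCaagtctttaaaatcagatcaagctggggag
Fbxw28, chr9:109339660-109339779, minus strand: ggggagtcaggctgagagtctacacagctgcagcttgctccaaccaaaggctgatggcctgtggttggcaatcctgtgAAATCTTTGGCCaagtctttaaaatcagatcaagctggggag
Fbxw24, chr9:109626060-109626179, minus strand: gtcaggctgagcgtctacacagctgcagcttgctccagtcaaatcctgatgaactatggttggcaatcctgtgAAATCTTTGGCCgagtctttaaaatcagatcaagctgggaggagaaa
Fbxw15, chr9:109568263-109568382, minus strand: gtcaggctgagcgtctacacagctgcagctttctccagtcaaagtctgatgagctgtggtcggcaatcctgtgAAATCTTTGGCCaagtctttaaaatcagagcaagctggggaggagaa
The shared run is 12 bases long and was found, on either strand, in 11 of 27025 promoters (0.0407%), 10 of them of Fbxw genes and 1 of Olfr829. Over the 250 bases before the start, the 28 pairs of these 8 promoters aligned at 83.5% to 96.8% identity, highest between Fbxw14 and Fbxw28.

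For the rising genes, capitals mark TATATA and GGATTA on either strand, the second being the core bound by homeodomain proteins of the OTX and OBOX kind.
Gm4027, chr12:87618789-87618908, plus strand: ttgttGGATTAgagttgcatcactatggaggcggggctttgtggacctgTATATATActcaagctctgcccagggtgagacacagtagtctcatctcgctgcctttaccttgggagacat
BB287469, chr12:87816457-87816576, plus strand: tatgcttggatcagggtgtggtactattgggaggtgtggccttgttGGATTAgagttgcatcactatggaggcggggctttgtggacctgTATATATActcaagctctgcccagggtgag
Zfp352, chr4:90218700-90218819, plus strand: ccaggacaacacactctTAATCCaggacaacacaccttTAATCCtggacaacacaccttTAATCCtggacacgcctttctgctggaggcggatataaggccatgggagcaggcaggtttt
Of the 27025 promoters of the table, 5.56% hold TATATA and 6.38% hold GGATTA in 250 bases, and a match is a description of letters, not of a bound site. The promoters of Gm4027 and BB287469 share an identical run of 209 bases. The RefSeq start of BB287469 lies inside the span from which its TPM was taken, which begins near the start of Gm4027. Promoters were held for 68.5% of the genes that rose and 72.1% of those that fell in both sets, under the 80% needed, so no share over those genes is given.

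The falls opened with the oocyte F-box proteins. Fbxw genes of this kind encode F-box proteins with WD40 repeats that are made in the oocyte and act as substrate receptors of SCF ubiquitin ligases. The tables hold 13 of them between 109139454 and 109790650 on chromosome 9 (Fbxw13 to Fbxw28, all on the minus strand), and 11 of these 13 fell in both sets. Fbxw24, at 109601116 to 109626059, had from 5339 to 9335 TPM (median 8868) at 14 hpa and from 719 to 3140 TPM (median 1789) at E2C. The groups did not overlap, and the fall of 2.43 (SE 0.415, adjusted p = 5.57e-05, limma) came to -3.30 in the first set and -1.56 in the second. Fbxw14, at 109271125 to 109287676, had 3044 to 5270 TPM (median 4973) at 14 hpa and 397 to 1629 TPM (median 999) at E2C, a change of -2.46 (SE 0.406, adjusted p = 3.18e-05, limma). Fbxw22 had 617 to 1245 TPM (median 1154) at 14 hpa and 145 to 455 TPM (median 280) at E2C, again without overlap.

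Summed over these genes and Fbxw17 of chromosome 13, the level lay between 14960 and 25970 TPM in the 14 hpa libraries. At E2C it was 2589 to 2972 TPM in replicates 1 to 3 and 8279 to 9082 TPM in replicates 4 to 6, all below the 14 hpa libraries. Among the 11 members the change ran from -1.44 for Fbxw18 to -2.46 for Fbxw14. The exceptions were Fbxw19, called lower over all 12 libraries but changed by only -0.75 among replicates 1 to 3, and Fbxw13, at -1.37 with an adjusted p of 0.0507 in limma. Both were read for their place in the family, after their values were seen. How reads shared by copies were split between them is not given in the sources used here, and the transcripts of the copies were not compared, so the values of single members are uncertain. In each of Fbxw14, Fbxw22 and Fbxw24, the lowest 14 hpa library was replicate 1. Of the 14 hpa libraries it also had the fewest aligned bases (1.90 gigabases) and the fewest genes at 1 TPM or more (7438). Its share of TPM on reference genes was 53.8%, beside 62.4% to 69.2% in the others. The part of these measures in its values was not tested.

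**Figure D2:**
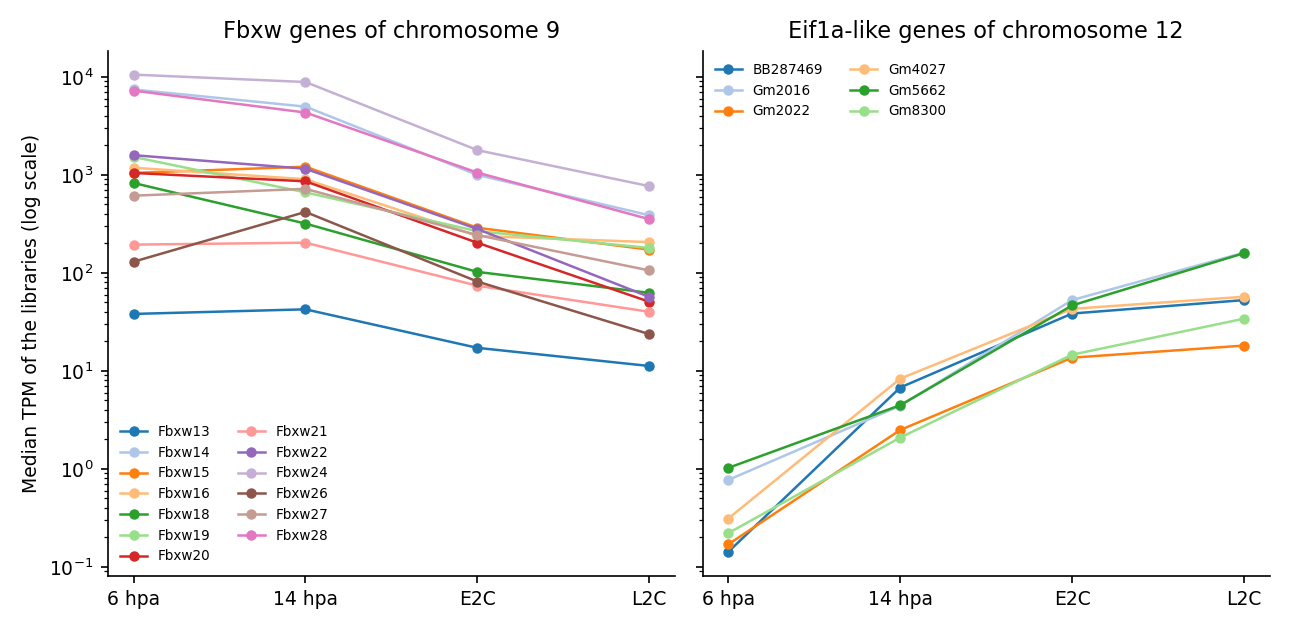
Median TPM over the libraries of 6 hpa, 14 hpa, E2C and L2C (late 2-cell) on a log axis, 1 line per gene. The 13 Fbxw genes of chromosome 9 (left) lie lower at E2C than at 14 hpa, with Fbxw24 at medians of 8868 and 1789 TPM. The 6 Eif1a-like genes plotted from chromosome 12 (right), which all rose in both sets, lie higher (Gm4027 at 8.32 and 42.9 TPM).

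Other oocyte factors fell with them. Of 67 tested genes in a list of oocyte factors, 18 were lower over all 12 libraries and 15 in both sets, while 1 was higher and none in both sets. The list includes the Fbxw genes, which make up 9 of these 15. The rest were E330017A01Rik, Nlrp4b, Nlrp5, Ooep, Oosp2 and Zfp57. Ooep encodes a subunit of the subcortical maternal complex of the oocyte cortex. It had 318 to 918 TPM (median 554) at 14 hpa and 74.4 to 248 TPM (median 150) at E2C, a fall of 1.94 (SE 0.361, adjusted p = 2.17e-04, limma) that was -2.08 and -1.81 in the 2 sets. The list's median change was -0.25 in the first set and -0.44 in the second, beside 0.38 and -0.15 over all genes. Its summed level overlapped between the stages, at 113176 to 130070 TPM in the 14 hpa libraries and 118111 to 130954 TPM in the E2C libraries.

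Few genes for the storage and decay of maternal RNA passed in both sets. Pabpn1l, an oocyte poly(A)-binding protein that brings the deadenylase adaptor BTG4 to maternal RNA, had 27.3 to 116 TPM (median 63.7) at 14 hpa and 2.88 to 29.0 TPM (median 11.7) at E2C. It fell by 2.44 (SE 0.394, adjusted p = 2.35e-05, limma), although the highest E2C library lay above the lowest 14 hpa library. Zar1l, a relative of the maternal RNA-storage factor ZAR1, fell from a median of 94.0 to 20.5 TPM, and Papolg, a poly(A) polymerase, from 25.0 to 5.25 TPM. The third list member that moved in both sets, Clp1, which acts in cleavage of the 3′ end of pre-mRNA, rose. Clp1 had 0.185 to 7.61 TPM (median 4.12) at 14 hpa and 8.90 to 52.5 TPM (median 21.7) at E2C, a rise of 2.51 (SE 0.434, adjusted p = 6.58e-05, limma). Of 35 genes for storage and polyadenylation tested, 2 fell and 1 rose in both sets, beside 1.93% and 0.455% of all genes.

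Among 64 genes for deadenylation and decay, 5 were lower and 2 higher (Cnot8 and Pabpc1) over all 12 libraries. In both sets 4 fell, beside 1.93% of all genes, and none rose. Besides Pabpn1l these were Lsm3, a subunit of the LSM rings that bind U6 and decaying mRNA, Exosc9 of the RNA exosome, and Dicer1, which cuts the precursors of small RNAs. Lsm3 showed no overlap, with 377 to 685 TPM (median 467) at 14 hpa and 132 to 207 TPM (median 182) at E2C. The fall of Dicer1 was small, from a median of 59.3 to 26.2 TPM, and its call was lost in 8 of 12 fits that left out 1 library, with an adjusted p up to 0.0889 in limma. Papolg lost its call in 4 of those 12 fits (up to 0.0734).

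Rnf17, a tudor-domain protein of the germline small RNA pathway, had 34.3 to 57.5 TPM (median 46.3) at 14 hpa and 4.54 to 8.96 TPM (median 7.49) at E2C. Its change of -2.54 (SE 0.403, adjusted p = 1.65e-05, limma) was among the 15 largest by the smaller change of the 2 sets.

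The falls of largest size were spread over unrelated functions. Gm813 headed them, with 124 to 317 TPM (median 253) at 14 hpa and 7.35 to 38.0 TPM (median 26.1) at E2C. It fell by 3.41 (SE 0.391, adjusted p = 1.62e-08, limma), by similar amounts in the 2 sets (-3.71 and -3.11). Terf1, which encodes the telomere-binding protein TRF1, had 49.9 to 130 TPM (median 113) at 14 hpa and 8.84 to 27.3 TPM (median 18.3) at E2C, a change of -2.54 (SE 0.298, adjusted p = 2.17e-08, limma). Gins1, a subunit of the GINS complex of the replicative helicase, fell from a median of 55.5 to 6.91 TPM, with no library in common. Mrpl47 of the mitochondrial ribosome had 71.7 to 120 TPM (median 96.6) at 14 hpa and 11.3 to 26.1 TPM (median 20.5) at E2C. Ip6k2, an inositol hexakisphosphate kinase, fell from a median of 45.5 to 9.16 TPM and Lrrc36 from 15.5 to 1.76 TPM. Also among the 15 largest falls, without overlap of their libraries, were Efhc2 and Zfp952, at medians of 27.7 and 19.9 TPM before and 3.65 and 2.88 TPM after. A930015D03Rik fell from a median of 48.5 to 9.22 TPM without overlap, but its call was lost in 7 of 12 fits without 1 library (adjusted p up to 0.167 in limma).

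**Figure D3:**
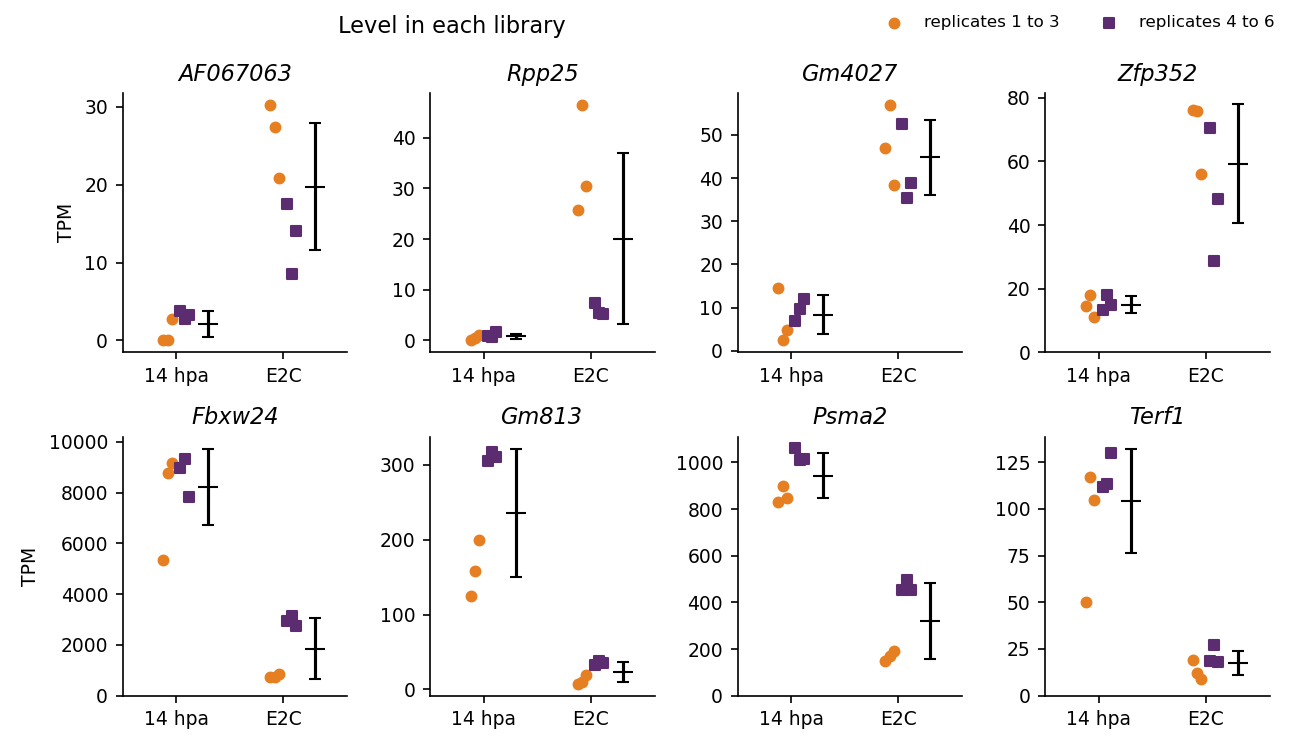
TPM of 4 genes that rose and 4 that fell in both sets, in each library of 14 hpa and E2C (circles, replicates 1 to 3, and squares, replicates 4 to 6), with the mean and SD of 6 libraries beside them. For all 8 genes every E2C library lies on 1 side of every 14 hpa library. This held for 30 of the 54 rises and 144 of the 229 falls, beside 598 of the 11867 genes tested, so the 8 do not stand for all. The sets sit apart at E2C for Rpp25 (25.7 to 46.4 against 5.25 to 7.30 TPM), AF067063, Fbxw24, Gm813 and Psma2.

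Genes for cell division fell in small number. Of 62 genes for mitosis and anaphase 5 fell in both sets, beside 1.93% of all genes, and none rose in both (6 were lower and none higher over all 12 libraries). Bub3 of the spindle checkpoint had 44.9 to 302 TPM (median 171) at 14 hpa and 17.5 to 108 TPM (median 50.7) at E2C. These ranges overlapped, and the change was -1.51 (SE 0.357, adjusted p = 4.06e-03, limma). Ndc80, the kinetochore subunit that holds microtubules, had 28.7 to 65.3 TPM (median 54.3) at 14 hpa and 8.81 to 17.8 TPM (median 16.3) at E2C. Kif23 and Prc1, which bundle the microtubules of the spindle midzone, fell from medians of 122.6 and 91.7 to 54.7 and 43.02 TPM. The fifth was Anapc4. Tacc3, a spindle protein outside the list, had 25.3 to 358 TPM (median 178) at 14 hpa and 4.04 to 54.3 TPM (median 29.6) at E2C, a change of -2.50 (SE 0.664, adjusted p = 0.0118, limma). The calls of Kif23, Prc1, Ndc80 and Tacc3 were lost in 7, 2, 1 and 1 of 12 fits without 1 library, with adjusted p up to 0.103, 0.0726, 0.0527 and 0.0664. Of 50 genes for DNA replication 3 were lower and 1 (Ccne1) was higher over all 12 libraries. The list's median change was 0.27 in the first set and -0.39 in the second. In both sets 2 fell, beside 1.93% of all genes, which were Gins1 and the clamp loader subunit Rfc3. Rfc3 went from a median of 98.3 to 31.3 TPM, and its call was lost in 2 of those 12 fits (adjusted p up to 0.0826).

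Of 48 proteasome genes tested, Psma2, Psma7, Psmc2, Psmc5 and Psmd12 fell in both sets, beside 1.93% of all genes, and none rose in both. Over all 12 libraries Psmb3, Psmb6, Psmb9 and Psmg2 were higher. Psma2, of the catalytic core, had 829 to 1063 TPM (median 954) at 14 hpa and 151 to 495 TPM (median 320) at E2C, a fall of 1.73 (SE 0.218, adjusted p = 1.52e-07, limma). Psma7, also of the core, fell from a median of 1130 to 324 TPM, the base subunit Psmc5 from 162 to 57.1 TPM and the lid subunit Psmd12 from 187 to 56.2 TPM. The list's median change was 0.52 in the first set and -0.62 in the second. Its summed level overlapped between the stages in the first set, at 3257 to 5146 TPM and 3129 to 3527 TPM, and was lower at E2C in the second, at 7406 to 7794 TPM and 4913 to 5034 TPM. Hsp90aa1, the inducible cytosolic HSP90, had 697 to 1511 TPM (median 1261) at 14 hpa and 205 to 604 TPM (median 397) at E2C. The small heat shock protein gene Hspb1 moved the other way, from a median of 6.26 to 17.2 TPM, with a call lost in 7 of 12 fits without 1 library (adjusted p up to 0.141 in limma). In the list of 88 chaperones and heat shock genes 1 fell and 2 rose in both sets.

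The machinery of translation and of ribosome assembly showed single large falls. Gspt2, which encodes the release factor eRF3b, and Bms1, a GTPase needed for the small ribosomal subunit, were at medians of 52.9 and 69.9 TPM at 14 hpa and 5.39 and 9.74 TPM at E2C. Eif3m, a subunit of the initiation factor eIF3, fell more among replicates 4 to 6 (-2.81) than among replicates 1 to 3 (-1.03). Its levels were 26.0 to 84.2 TPM (median 51.6) at 14 hpa and 5.62 to 19.9 TPM (median 11.4) at E2C. Eif2b3 and Eif2b4, subunits of the exchange factor eIF2B, fell from medians of 67.6 and 13.5 to 11.2 and 2.58 TPM, the second with a call lost in 7 of 12 fits without 1 library (adjusted p up to 0.127 in limma). In all 5 of 74 translation factors fell in both sets, beside 1.93% of all genes, and none rose in both. Over all 12 libraries 6 were lower and 4 were higher (Eif1a, Eif4ebp1, Eif5a and Pabpc1).

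Dcaf13 and Ddx18, both nucleolar and needed for processing of ribosomal RNA, fell from medians of 131 and 79.9 to 42.2 and 22.7 TPM without overlap. Taf1b, a subunit of the selectivity factor of RNA polymerase I, fell from 21.1 to 5.34 TPM. With Bms1 and Rpf1 these made 5 of 105 nucleolar and ribosome biogenesis genes that fell in both sets, beside 1.93% of all genes. Over all 12 libraries 11 were lower and 4 were higher. Their summed level was lower at E2C within each set, at 4143 to 5239 TPM against 2978 to 3267 TPM for replicates 1 to 3 and at 5701 to 6171 TPM against 3525 to 3690 TPM for replicates 4 to 6. The median change of the list differed in sign, being 0.51 in the first set and -0.66 in the second.

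The spliceosome and the transcription machinery gave few calls. Crnkl1, a core splicing factor, had 121 to 176 TPM (median 151) at 14 hpa and 23.7 to 54.98 TPM (median 41.02) at E2C. Snrnp70 of the U1 particle fell from a median of 27.7 to 6.41 TPM, with a call lost in 5 of 12 fits without 1 library (adjusted p up to 0.0752 in limma). They were the 2 of 71 spliceosome genes that fell in both sets, a share near the 1.93% of all genes. Of 93 genes listed for RNA polymerase II, TFIID and Mediator, Med6, Med8, Mnat1 and Taf1b fell in both sets, beside 1.93% of all genes. Taf1b is the RNA polymerase I factor named above and is counted in both lists. Med8 fell from a median of 17.1 to 3.99 TPM and Med6 from 246 to 115 TPM. Med6 and Mnat1 each lost their call in 2 of those 12 fits (adjusted p up to 0.0647 and 0.0652).

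Dnmt1, the maintenance DNA methyltransferase, was the 1 of 18 genes of DNA methylation that fell in both sets. It had 10.5 to 78.9 TPM (median 36.7) at 14 hpa and 3.16 to 10.1 TPM (median 6.98) at E2C. The groups did not overlap, and the change of -2.23 (SE 0.439, adjusted p = 4.34e-04, limma) was -1.78 and -2.69 in the 2 sets. Among 24 writers, readers and erasers of H3K9 methylation, a mark known as a barrier to reprogramming in SCNT embryos, none changed in both sets. Over all 12 libraries 2 of them were lower and 1 was higher. Mphosph8, a chromodomain subunit of the HUSH silencing complex, was lower over all 12 libraries, from a median of 195 to 70.7 TPM, but by only -0.85 among replicates 4 to 6. Cbx1, the HP1β gene, had medians of 120 and 97.2 TPM and no call.

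Rises in both sets were led by genes that were near the lower end of detection at 14 hpa. The Eif1a-like genes are copies related to translation initiation factor eIF1A that are known for expression in the 2-cell embryo. Within 760 kb of chromosome 12, 7 of 12 tested genes rose in both sets, which were BB287469, Gm16381, Gm2016, Gm2022, Gm4027, Gm5662 and Gm8300. Gm4027, at 87618909 to 87622143, had 2.38 to 14.4 TPM (median 8.32) at 14 hpa and 35.4 to 56.9 TPM (median 42.9) at E2C, a rise of 2.44 (SE 0.596, adjusted p = 5.43e-03, limma). Gm8300 had 0.392 to 3.36 TPM (median 2.09) at 14 hpa and 7.48 to 39.7 TPM (median 14.6) at E2C, a rise of 2.69 (SE 0.642, adjusted p = 4.42e-03, limma). Gm2016 and Gm5662 rose from medians of 4.40 and 4.46 to 52.8 and 46.5 TPM, and each lost its call in 4 of 12 fits without 1 library (adjusted p up to 0.0846 and 0.0668). Not every nearby Eif1a-like gene was called. Gm5039 changed by 0.708 (adjusted p = 0.568, limma) and Gm21319 by 1.25 (adjusted p = 0.165), and neither passed. At 6 hpa all 6 of those plotted were between 0.142 and 1.02 TPM in median, below their medians at 14 hpa, which were 2.09 to 8.32 TPM.

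These copies are not independent of each other. In the tables BB287469 spans 87618868 to 87820676 and so covers Gm4027, and Gm16381 overlaps that span on the other strand. The summed level of the 6 Eif1a-like genes, with medians of 28.8 TPM at 14 hpa and 227 TPM at E2C, can thus count the same reads more than once. Of 52 rising genes with a single place in the tables, 19 overlapped another annotated gene, as did 34 of 227 falling genes. The same share was not taken over all genes tested, so these counts cannot be called high or low. The protocol does not state strand-specific counting.

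In the list of 2-cell and minor activation genes 5 of 47 rose in both sets and none fell, and 4 of the 5 were Eif1a-like genes. The fifth was Zfp352, a zinc finger gene of the 2-cell embryo, which lies at 90218820 to 90225687 on chromosome 4. It had 11.1 to 18 TPM (median 14.7) at 14 hpa and 28.7 to 76.3 TPM (median 63.3) at E2C. Every E2C library was above every 14 hpa library, yet the rise of 1.86 (SE 0.587, adjusted p = 0.0405, limma) lost its call in 10 of 12 fits that left out 1 library (adjusted p up to 0.1003). Over all 12 libraries 7 members of the list were higher and none lower. The list's median change was 0.85 in the first set and 0.04 in the second. Its summed level overlapped between the stages in the first set, at 647 to 1304 TPM and 1000 to 1573 TPM, and was lower at E2C in the second, at 1509 to 1654 TPM and 1230 to 1395 TPM.

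AF067063, on chromosome 13, had 0 to 3.72 TPM (median 2.76) at 14 hpa and 8.48 to 30.2 TPM (median 19.2) at E2C. It rose by 2.91 (SE 0.502, adjusted p = 6.27e-05, limma), by 4.11 among replicates 1 to 3 and 1.71 among replicates 4 to 6. Rpp25, a subunit of RNase P and RNase MRP, was listed at 0 to 1.61 TPM (median 0.785) at 14 hpa and at 5.25 to 46.4 TPM (median 16.5) at E2C. Guca1a, which encodes an activator of photoreceptor guanylate cyclase, had 0.113 to 4.78 TPM at 14 hpa and 15.3 to 45.2 TPM at E2C, with no overlap. The largest pooled rise of the 54 was that of 4930579G24Rik, at 3.61 (SE 0.513, adjusted p = 1.96e-06, limma), with 0 to 3.41 TPM (median 1.59) at 14 hpa and 12.1 to 52.8 TPM (median 29.2) at E2C.

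Other rises came from scattered loci. Arrdc4, an α-arrestin, rose from a median of 0.387 to 12.1 TPM, and 14 hpa replicate 1 (3.70 TPM) lay above the lowest E2C library. The α-globin genes Hba-a1 and Hba-a2 were at most 0.806 TPM at 14 hpa and 2.98 to 17.4 TPM (Hba-a1) at E2C. Their spans in the tables coincide, so they are 1 measurement. Scand1 rose from a median of 9.05 to 76.4 TPM and lost its call without 14 hpa replicate 1 (adjusted p = 0.0623 in limma). Snord52, a small nucleolar RNA inside the host gene 1110038B12Rik, was listed at 0 in 5 of the 6 libraries of 14 hpa and at 3.33 to 14.2 TPM at E2C, and reads of the host cannot be told from its own. Gm6654 rose from a median of 0.701 to 7.25 TPM.

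Outside the rule for named genes, and picked after their values were seen, the metallothioneins rose as a pair. Mt1 had 14.6 to 25.5 TPM (median 19.2) at 14 hpa and a median of 114 TPM at E2C, and Mt2 went from a median of 14.3 to 104 TPM. Their changes were 2.31 (adjusted p = 6.46e-06, limma) and 2.60 (adjusted p = 4.52e-07). Both bind zinc and copper. Gpx1, a glutathione peroxidase, rose from a median of 13.2 to 47.1 TPM and Oaz1, the antizyme that limits polyamine synthesis, from 210 to 579 TPM.

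In the remaining lists no gene rose in both sets, except for 2 of 206 solute carriers and channels (Slc16a6 and Slc22a21), of which Kcnn2 alone fell. The call of Kcnn2 was lost in 9 of 12 fits without 1 library (adjusted p up to 0.133 in limma). No member of 46 early embryo transcription factors, 82 respiratory chain genes or 56 replication-dependent histone genes changed in both sets, although over all 12 libraries 2 histone genes and 2 respiratory genes were higher, and 4 respiratory genes and Obox2 were lower. Obox5, a homeobox gene of the oocyte and early embryo, stood at medians of 3438 and 4753 TPM, with E2C above 14 hpa in every library. Its change was 0.49 (SE 0.526, adjusted p = 0.739, limma), with an SE that pools the spread of all 9 stages. Zbed3 had medians of 2038 and 4512 TPM with overlap and a change of 0.99 (adjusted p = 0.511). Cox5a had 942 and 741 TPM, and Cox8a, higher over all 12 libraries, had 341 and 767 TPM with a change of 0.80 among replicates 4 to 6.

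**Figure D4:**
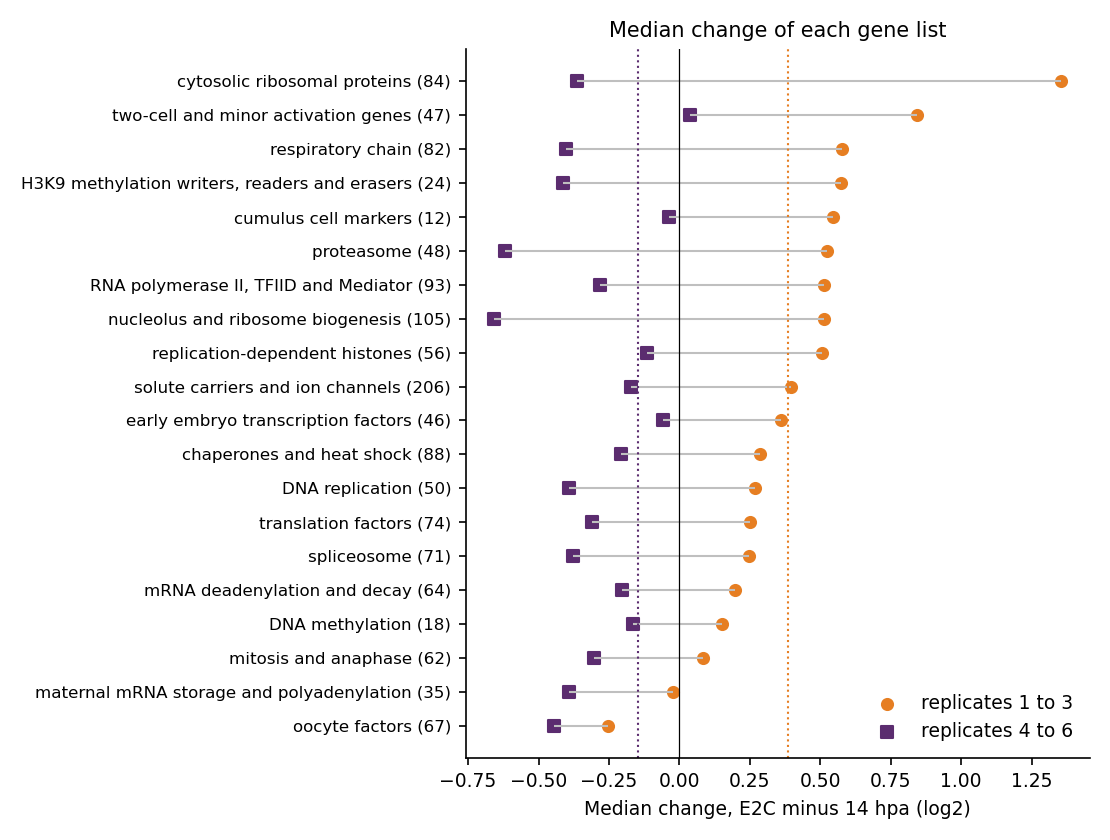
Median change from 14 hpa to E2C (log2) of each gene list, with the number of genes tested, among replicates 1 to 3 (circles) and replicates 4 to 6 (squares), and the median of all genes in each set as dotted lines. Every list lies lower among replicates 4 to 6, and the cytosolic ribosomal proteins are farthest apart, at 1.36 and -0.36.

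The sets parted most for the ribosomal proteins of the cytosol. Over all 12 libraries 22 of 84 were higher and 3 lower, but none rose in both sets and 2 fell in both. Their summed level among replicates 1 to 3 was 6233 to 7667 TPM at 14 hpa and 8583 to 10805 TPM at E2C. Among replicates 4 to 6 it was 7006 to 7883 TPM at 14 hpa and 7162 to 7622 TPM at E2C. The median change was thus 1.36 in the first set and -0.36 in the second. Rpl36 fell from a median of 19.6 to 7.81 TPM with a call lost in 6 of 12 fits without 1 library (adjusted p up to 0.104). Reads of ribosomal protein genes can be shared with their many processed copies.

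A test of the difference between the sets, in limma with stage and set as joint groups, gave 825 genes whose change was more negative among replicates 4 to 6 (6.95%) and 68 whose change was more positive (0.573%). Of the 84 ribosomal protein genes 63 were among the 825, as were 25 of 82 respiratory chain genes, 23 of 105 nucleolar genes, 16 of 48 proteasome genes and 15 of 74 translation factors. None of the 67 oocyte factors was among them, and 2 were more positive. Of the genes that changed in both sets, 12 of 54 rises and 9 of 229 falls also differed in size between the sets by this test. Taken alone, replicates 1 to 3 gave 1010 higher (8.51%) and 309 lower genes (2.60%), and replicates 4 to 6 gave 67 higher (0.565%) and 670 lower genes (5.65%). In those separate fits 36 genes were called higher in the first set and lower in the second, and no gene the other way.

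Measures of the libraries moved with the sets. The number of genes at 1 TPM or more was 7438 to 9103 at 14 hpa and 10122 to 10917 at E2C among replicates 1 to 3, and 10160 to 10564 at 14 hpa and 9903 to 9967 at E2C among replicates 4 to 6. Over all libraries the difference of 835 genes between the stages had p = 0.152 (two-sided exact permutation test, n = 6 and 6, adjusted p = 0.227 over 3 measures). Correlations of log2 levels were 0.945 to 0.947 within E2C replicates 1 to 3, 0.971 to 0.973 within E2C replicates 4 to 6 and 0.885 to 0.914 between them. At 14 hpa they were 0.923 to 0.958, 0.983 to 0.986 and 0.865 to 0.959. Between the stages they were 0.829 to 0.891 among replicates 1 to 3 and 0.954 to 0.960 among replicates 4 to 6. The E2C libraries of replicates 4 to 6 thus correlated more with 14 hpa libraries of their own set than with the other E2C libraries. Aligned bases per library were 1.90 to 4.49 gigabases, and read numbers are not in the files used here. The part of these measures in the difference between the sets was not tested.

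The labelled source was checked against marker genes. All 10 oocyte markers, such as Bmp15, Gdf9 and Dppa3, were at 1 TPM or more at both stages, summing to 20690 to 28390 TPM at 14 hpa and 17820 to 26480 TPM at E2C, against 4.92 to 5.98 TPM in the 3 libraries of donor cumulus cells. Of 18 cumulus markers 6 were at 1 TPM or more at each stage, and 15 were in the cumulus cells. The sum was 11.4 to 37.1 TPM at 14 hpa, 27.4 to 59.0 TPM at E2C and 4819 to 5746 TPM in the cumulus cells. Cyp19a1, 1 of the 6, ran the other way, with means of 8.88 and 8.82 TPM at the 2 stages and 2.79 TPM in cumulus cells. The rest of the 6 were higher in cumulus cells. At 14 hpa Amh and Foxl2 were at 0 in all libraries. Lgals1, the highest of these 18 by mean in E2C libraries, had medians of 5.79 and 14.0 TPM and no call (adjusted p = 0.244, limma), and Serpine2, a cumulus gene outside the 18, had 114 and 74.7 TPM. Of a longer list of cumulus genes 12 could be tested, 1 of which (Bgn) was higher over all 12 libraries and none in both sets. Of the 54 rises 36 had a mean of 1 TPM or more in cumulus cells (66.7%), beside 75% of all genes tested. The part of donor RNA in the rises was not tested.

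The same genes were compared between L2C and 6 hpa, the stages on either side, in 12 other libraries. Their levels were not compared by the rule, but the calls came from the same fit over 53 SCNT libraries. Each gene thus kept the estimate of spread with which it was selected, and the shares are not independent of the rule. Over all genes 3672 were higher at L2C (30.9%) and 1897 were lower (16.0%). Of the 54 rises 44 were higher at L2C than at 6 hpa and 1 was lower. Of the 229 falls 141 were lower and 21 were higher. These shares of 81.5% and 61.6% stand beside 30.9% and 16.0% of all genes, which were not matched for level. At 6 hpa the median was 0.762 TPM for the rises, 55.9 TPM for the falls and 4.67 TPM for all genes. On the log2(TPM + 1) scale a gene under 1 TPM cannot fall by 1, so many of the rises could not be called lower. The filter on mean TPM also used the L2C libraries, where a scarce gene could gain its place.

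The falls differed in what was seen at L2C. Gm813 had a mean of 192 TPM at 6 hpa and 4.41 TPM at L2C, and Ip6k2 of 41.2 and 1.10 TPM. Fbxw24 had means of 10110 TPM at 6 hpa and 765 TPM at L2C. Other genes that fell to E2C were as high or higher at L2C than at 6 hpa. Terf1 had means of 89.1 TPM at 6 hpa and 87.2 TPM at L2C, and Gins1 of 28.7 and 43.1 TPM. Dcaf13 had 89.6 and 198 TPM, Lsm3 167 and 358 TPM, and Eif3m 17.3 and 93.6 TPM. The last 3 were called higher at L2C than at 6 hpa, with changes of 1.14, 1.09 and 2.31 (adjusted p = 3.50e-05, 2.60e-05 and 4.53e-10, limma). Among the rises, Mt1 had a median of 1027 TPM at L2C and Guca1a a mean of 215 TPM.

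The transcripts of the genes that fell were somewhat shorter and poorer in G and C than those of all genes tested. The longest coding transcript in GENCODE vM21 had a median length of 2237 bases (quartiles 1476 and 3337) for 220 of the 229 falls, beside 2836 bases (1794 and 4311) for 10756 tested genes. Median G and C content was 44.6% (quartiles 42.5 and 49.1) beside 49.4% (44.8 and 54.02). Without the Fbxw genes the medians were 2342 bases and 44.8%. The letters TTTTAT or TTTTAAT, forms of the cytoplasmic polyadenylation element, were read on the transcript strand in the last 100 bases of 15.5% of these transcripts and of 19.4% of all. Transcripts were found for 79.6% of the rises, under the 80% needed, and no value is given for them.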

How the data were processed

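Polyadenylated RNA of pooled blastomeres was sequenced as paired-end reads. The authors trimmed reads with Cutadapt 1.16, aligned them to mm10 with HISAT2 and assembled transcripts with StringTie. Versions of HISAT2 and StringTie, and how reads of copies were shared, are not given in the sources used here. The deposited values were coverage (a signal), FPKM and TPM per row, and without counts no depth in reads was used. Assembled rows add up to 1000000 in each library, and reference genes are listed beside them.

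TPM was summed per gene over rows with a gene name. Genes with a mean of 1 TPM or more were tested on log2(TPM + 1) with limma 3.58.1 (trended variance, R 4.3.3). The threshold was a Benjamini-Hochberg adjusted p of 0.05 and 2-fold. Named were the 15 rises and 15 falls with the largest change in the smaller of the 2 replicate sets and a mean of 5 TPM or more at the higher stage, up to 4 such genes per list, and 2 abundant members of lists with none. The members and lists were chosen with earlier results of these data known. The method was tested on simulated data. Gene lists for mitochondrially encoded RNA had no member in the tables used. The result of 1 gene is not reported here.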

Additional observations from a re-analysis of the deposited data

Results flagged for a closer look

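In 138 groups of 6 libraries, 13 held a value apart from the rest by Dixon's criterion at its 95% level, of which chance gives about 1 in 20. At 14 hpa, replicate 1 was lowest for Fbxw14 (3044 TPM, the others 4567 to 5270), Fbxw22 (617.4, the others 1072 to 1245), Fbxw24 (5339, the others 7811 to 9335), Hsp90aa1 (697.1, the others 1170 to 1511), Kcnn2 (2.482, the others 26.7 to 35.76) and Terf1 (49.9, the others 104.7 to 129.9). It was highest for Arrdc4 (3.703 TPM, the others at most 0.5098). Replicate 5 of 14 hpa held 1.975 TPM of Snord52, which was listed at 0 in the others.

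At E2C, replicate 2 had the most aligned bases (4.487 gigabases) and the most genes at 1 TPM or more (10917). E2C replicate 3 was lowest for A930015D03Rik (0.4035 TPM, the others 6.845 to 10.31), and E2C replicate 1 for Mrpl47 (11.33 TPM, the others 19.45 to 26.09) and Ndc80 (8.812 TPM, the others 14.48 to 17.75).

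For 5 named genes that changed in both sets the size differed between the sets in limma. The change among replicates 4 to 6 minus that among replicates 1 to 3 was -3.01 for 4930579G24Rik (adjusted p = 0.0135), -2.44 for Clp1 (adjusted p = 0.0117), -2.81 for Rpp25 (adjusted p = 3.58e-03) and -1.78 for Eif3m (adjusted p = 5.71e-03). It was 1.19 for Psma2 (adjusted p = 3.66e-03), whose fall was smaller among replicates 4 to 6.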

How the results depend on the processing

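In place of 330 rises over all libraries, the 12 libraries alone gave 196 and a replicate block 147, replicates 1 to 3 alone gave 1010, replicates 4 to 6 alone 67, and leaving out 1 library 175 to 410. The 362 falls became 656 with quantile normalization and 670 with replicates 4 to 6 alone, and were 258 to 439 without 1 library. The 54 rises in both sets became 123 with a pseudocount of 0.1, 132 with quantile normalization, 31 with a separate fit of each set and 284 with no minimum fold, and were 39 to 89 without 1 library. Of the 54, 45 were among the 123 and 47 among the 132. The 229 falls in both sets became 135 with separate fits and 362 with no minimum fold, and were 173 to 268 without 1 library. Of the differences between the sets, the 68 positive ones became 279 with quantile normalization and 157 with the 12 libraries alone, and the 825 negative ones 509 and 1485. The cause of these shifts was not tested.

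The replicate numbers were not taken to pair the libraries, since the labels give no shared source and not every pair correlated. The deviations of same-numbered libraries correlated at 0.0146 to 0.341 (median 0.204, beside -0.0765 for other numbers), and 3 of 6 libraries of 14 hpa correlated best with their own number. With the replicate block 68 genes rose and 260 fell in both sets. Of 66 named genes that changed in both sets, 47 kept their call in all 12 fits without 1 library. The call was kept by 59 with a pseudocount of 0.1, by 66 with TPM rescaled over reference genes, and by 65 each with quantile normalization and the replicate block. The small uncalled changes of Hist2h2aa1 and Hist2h2aa2 ran from -0.428 to 0.00823 and from -0.429 to 0.00735 without 1 library. The median change of all genes was 0.12, and -0.0028 with quantile normalization. Without read counts, no counting error can be given for genes of few TPM.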
